A study of Mus musculus with 34 samples.

Results

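The PGC-1 and ERR mitochondrial regulators described here are 7 genes taken by symbol from the deposited tables: Ppargc1a, Ppargc1b, Esrra, Esrrg, Nrf1, Gabpa and Tfam. They are 7 of 54540 distinct gene symbols over the tables. Each was listed once in every table, and all 7 passed the filter on low counts in every comparison. The members were taken by name, with no threshold on a measured value, though earlier results of these data were known when they were proposed. The lowest count of a member in any library was 18 reads (Gabpa), followed by 46 (Esrra) and 53 (Nrf1), while Ppargc1a never had fewer than 1538.

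Mitochondrial content and respiratory capacity are set in large part by transcription factors in the nucleus. The coactivators PGC-1alpha (Ppargc1a) and PGC-1beta (Ppargc1b) bind no DNA themselves and act through partners such as the estrogen-related receptors ERRalpha (Esrra) and ERRgamma (Esrrg), orphan nuclear receptors that bind genes of the citric acid cycle, respiratory chain and fat oxidation. Nuclear respiratory factor 1 (Nrf1) and the ETS-family factor GABPalpha (Gabpa, part of nuclear respiratory factor 2) act on many respiratory chain genes and on Tfam, which packages mitochondrial DNA and starts its transcription. Parvalbumin interneurons fire fast, use much energy and are known for high PGC-1alpha, on which their Pvalb, Syt2, Cplx1 and Nefh levels depend in mice.

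The study profiled ribosome-bound mRNA of interneurons in 34 libraries that form 11 groups, to find genes that respond to associative learning or to PTZ and to profile cells lacking Nr4a1. The mice were C57/BL6 at postnatal day 60, and all carried a RiboTag allele, which puts an HA tag on the ribosomal protein Rpl22 wherever Cre is made. Cre came from the Pvalb gene (PV libraries) or from the Sst gene (SST libraries), so a library reports on cells that use or once used that gene. Tagged ribosomes were pulled down from tissue labelled cortex and hippocampus, and the extraction protocol names only cortex. In batch 1, PV:Cre/Ribotag mice got saline (n = 3) or the GABA receptor blocker pentylenetetrazol, PTZ (n = 4). Batch 2 held Sst:Cre/Ribotag mice given saline (n = 4) or PTZ (n = 3) and PV:Cre/Ribotag mice given saline (n = 2). Batch 3 held PV:Cre/Ribotag mice from the home cage (n = 3), others trained by contextual fear conditioning, called CFC (n = 3), and home cage PV:Cre/Nr4a1-f/f/Ribotag mice (n = 3), called Nr4a1 cKO here. Batch 4 held Sst:Cre/Ribotag mice from the home cage (n = 3) or after CFC (n = 3), and batch 5 held home cage Sst:Cre/Nr4a1-f/f/Ribotag mice (n = 3). The labels do not say that libraries came from separate animals, so the p-values reflect only how far libraries of a group lie apart, which may be technical variation. The PTZ dose and the interval to tissue collection are not used here.

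Totals ran from 4933110 to 27282912 counts per library, and the PV saline libraries of batch 2 were the shallowest, with 6161764 and 4933110. Levels are given as CPM, read counts scaled to library size by the TMM method within a table. In batch 2 the markers fitted the labels: Sst was at 1746 to 3398 CPM in SST saline libraries and at 68.1 and 54.3 in PV saline libraries, where Pvalb was at 362 and 243. In batch 1, Pvalb was only 15.9 to 22.1 CPM in PV saline libraries, below Sst at 38.0 to 62.3. The full lists fitted the label there: 9 PV markers summed to 2490 to 3094 CPM and 8 SST markers to 170 to 208 CPM. In batch 4, Pvalb reached 87.2 to 477 CPM in SST home cage libraries, against 155 to 190 in PV home cage libraries of batch 3. The 9 PV markers summed to 960 to 1519 CPM in those SST libraries and to 2847 to 3713 CPM in those PV libraries. Markers of other cells were present throughout: 8 astrocyte markers summed to 350.0 to 4934 CPM and 8 excitatory neuron markers to 362 to 3046 CPM per library. In pull-down RNA from bulk tissue, fewer cells of a type and less RNA per cell cannot be told apart.

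Promoter sequences are shown for the 4 members whose 250 bases upstream of the start held a searched motif. The motifs searched were those of ERR, NRF1 and ETS-family factors, of Nr4a1 and of the cAMP response. RefSeq promoters of GRCm38.p6 were found for 6 of the 7 members, in 10 windows. Lower case is plain sequence and capitals mark the motif.
Ppargc1a (chr5:51567727-51567845, minus strand, 120 to 2 bases upstream): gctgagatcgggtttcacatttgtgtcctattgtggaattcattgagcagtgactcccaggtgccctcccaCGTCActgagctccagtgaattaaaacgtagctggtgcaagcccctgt
Esrra (chr19:6921814-6921928, minus strand, 120 to 6 bases upstream): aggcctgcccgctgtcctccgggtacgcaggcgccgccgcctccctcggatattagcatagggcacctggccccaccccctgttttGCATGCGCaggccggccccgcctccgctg
Tfam (chr10:71238073-71238102, minus strand, 58 to 29 bases upstream): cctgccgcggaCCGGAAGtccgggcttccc
Gabpa (chr16:84835020-84835049, plus strand, 104 to 75 bases upstream): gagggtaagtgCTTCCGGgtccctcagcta
The stretches of Tfam and Gabpa lie inside exons of the GENCODE annotation, those of Ppargc1a and Esrra just before the first exon.

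The Ppargc1a promoter held the cAMP response core TGACG on the strand opposite to the one printed, 49 to 45 bases upstream. That core is common, with a match in 17.8% of 32851 promoter windows, and the full element TGACGTCA (1.55% of windows, which all hold the core too) matched no member. Esrra held the NRF1 core GCATGCGC 34 to 27 bases upstream, found in 2.26% of windows, while the longer full NRF1 element (0.782%, again including the core) matched no member. The ETS motif CCGGAAG, the kind GABPalpha binds, was found in Tfam (47 to 41 bases upstream) and on the minus strand of Gabpa (93 to 87 bases upstream), and in 6.91% of windows. The ERR element TCAAGGTCA (0.387% of windows) and the Nr4a1 element AAAGGTCA (1.34%) matched no member window. Both strands were searched in each case. These matches are letters in a window and not measured binding sites.

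In GRCm38 with GENCODE M21, Ppargc1a lies on chromosome 5 from 51454250 to 51567726 (minus strand), Esrra on chromosome 19 from 6910977 to 6921813 (minus), and Esrrg on chromosome 1 from 187608791 to 188214885 (plus). Nrf1 lies on chromosome 6 from 30047988 to 30153458 (plus), Gabpa on chromosome 16 from 84834925 to 84863779 (plus), Tfam on chromosome 10 from 71225464 to 71238280 (minus), and Ppargc1b on chromosome 18. Gabpa shares 397 of its 5687 exon bases with Atp5j on the opposite strand. Esrra shares 164 of 4387 with Trmt112 on the opposite strand and a microRNA gene. No source used here gives the strandedness of the libraries, so reads from these stretches cannot be told apart.

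SST and PV cells could be compared directly only in batch 2, after saline. There, 3 of the members at the centre of the pathway were lower in SST than in PV libraries: Esrra 9.502-fold, Esrrg 5.11-fold and Ppargc1a 2.83-fold. Tfam was 1.52-fold lower. In all, 6 of the 7 members passed the test, 5 lower and 1, Gabpa, higher. In this comparison 53.1% of the 11784 genes tested were called, 27.1% lower and 26.0% higher, so a call by itself is common here. The members' median log2 difference was -1.17, beside 0.01 over all genes tested. That median is the value of Nrf1, which rested on 1 PV library. Without that library the middle value among the members was that of Tfam, -0.56. The adjusted p-values are from the quasi-likelihood F test of edgeR with Benjamini-Hochberg adjustment over all genes tested, and called means an adjusted p under 0.05.

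**Figure D1:**
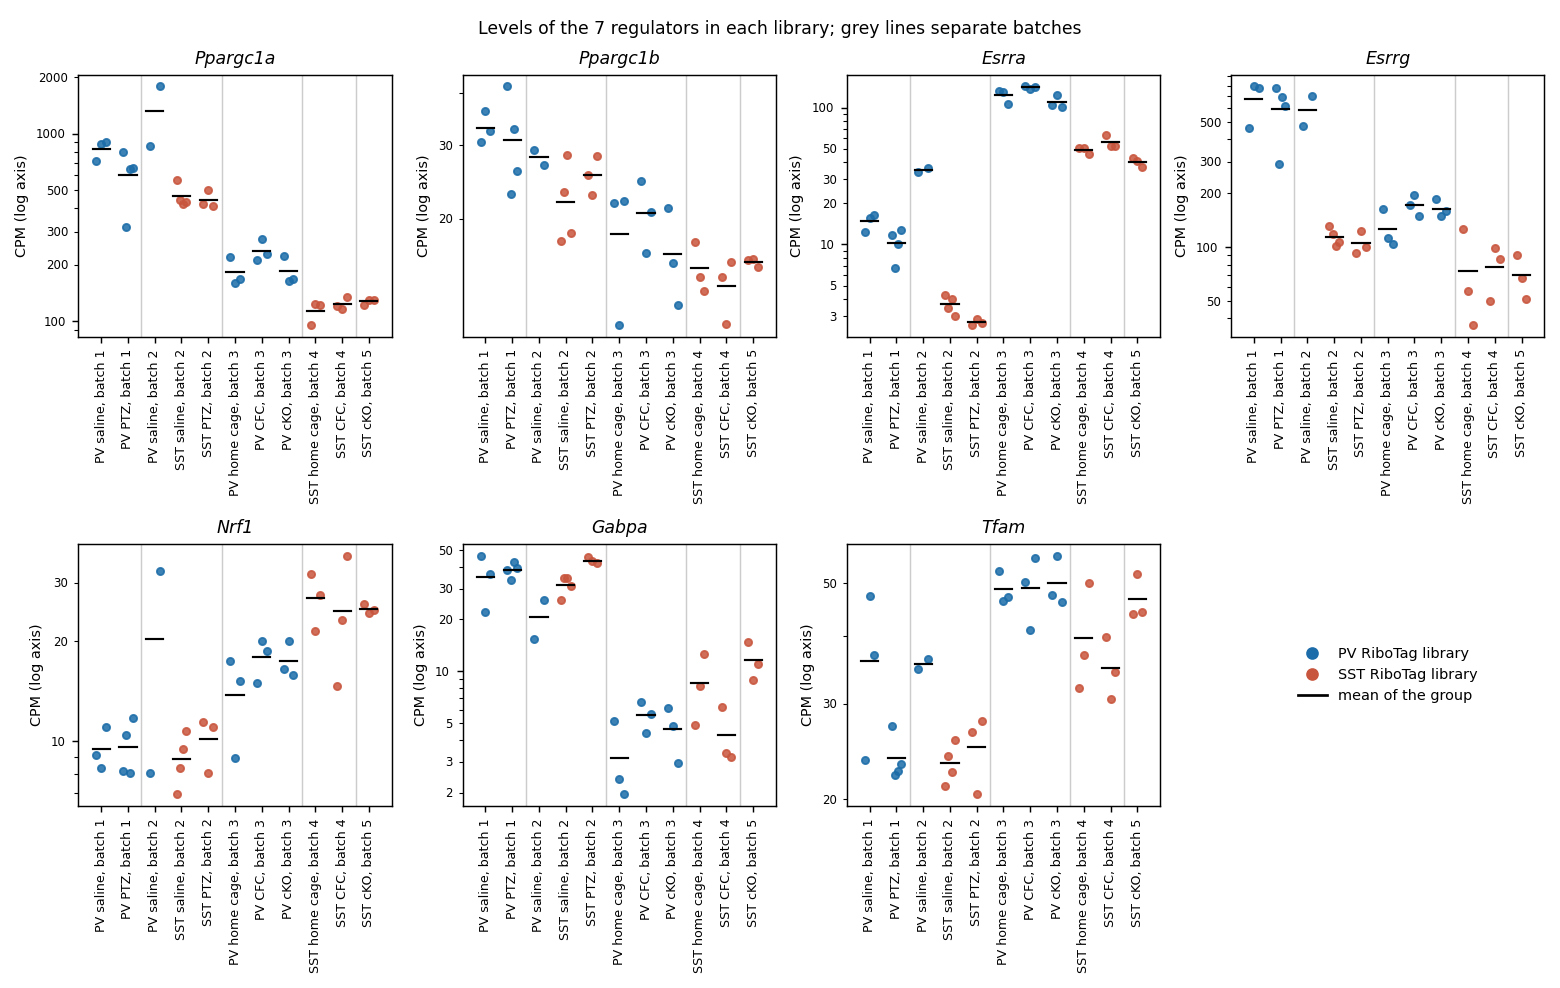
CPM (log axis) of each of the 7 regulators in every library, with black bars at group means and grey lines between batches. Ppargc1a, Esrra, Esrrg and Tfam were higher in both PV saline libraries of batch 2 than in the 4 SST saline libraries, while Nrf1 rested on 1 PV library at 32.5 CPM.

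Among the coactivators, Ppargc1a had 864 and 1783 CPM in the PV saline libraries and 569, 445, 421 and 434 CPM in the SST saline libraries. The groups did not overlap, and the difference was -1.50 ± 0.22 on the log2 scale (SE; adjusted p = 0.000159, edgeR). Its size depended on the PV libraries: it was -0.88 (adjusted p = 0.000289) without PV replicate 2 and -1.94 (adjusted p = 8.13e-08) without PV replicate 1. Leaving out a PV library leaves 1 in that group, which is then assumed to vary like the others. Ppargc1b, its less abundant paralog, had 29.3 and 26.9 CPM in PV and 17.7, 23.2, 28.4 and 18.5 CPM in SST libraries. These overlapped, and the difference of -0.36 ± 0.21 (95% interval -0.78 to 0.06) did not pass (adjusted p = 0.175).

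The receptors stood furthest apart. Esrra had 33.9 and 35.9 CPM in PV saline libraries and 4.29, 3.42, 4.00 and 2.98 CPM in SST saline libraries, a log2 difference of -3.25 ± 0.22 (adjusted p = 4.95e-07, edgeR). Every SST library was far below every PV library, and 0.67% of all genes tested had a lower value. Esrrg had 476 and 696 CPM in PV and 132, 119, 101 and 106 CPM in SST libraries, a log2 difference of -2.35 ± 0.17 (adjusted p = 7.34e-07, edgeR). Again the groups were well separated, and 2.75% of genes had a lower value. Esrrb, the remaining member of the ERR family, was at 20.4 ± 8.33 CPM in PV (SD, n = 2) and 1.91 ± 0.69 CPM in SST libraries (SD, n = 4), a log2 difference of -3.41 ± 0.37 (SE; adjusted p = 1.59e-05, edgeR).

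Of the downstream factors, Tfam had 34.8 and 36.4 CPM in PV saline libraries and 21.2, 24.1, 22.5 and 25.7 CPM in SST saline libraries. Both PV libraries were above all SST libraries, with a log2 difference of -0.60 ± 0.18 (adjusted p = 0.0125, edgeR). Gabpa went the other way, with 15.3 and 25.87 CPM in PV and 25.88, 34.6, 34.3 and 30.9 CPM in SST libraries. The groups did not overlap, but the closest PV and SST libraries had nearly the same value. The log2 difference was 0.62 ± 0.22 (adjusted p = 0.0292, edgeR), and it was 0.27 (adjusted p = 0.261) without PV replicate 1. The call also went without SST replicate 2 (0.57, adjusted p = 0.0681), 3 (0.58, 0.0606) or 4 (0.63, 0.0517).

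Nrf1 rested on 1 library. It had 8.014 and 32.5 CPM in PV saline libraries and 6.96, 8.32, 9.47 and 10.75 CPM in SST saline libraries, so the first PV library lay within the SST range. The log2 difference was -1.17 ± 0.41 (adjusted p = 0.0309, edgeR). Without PV replicate 2, the shallowest library of the series, it was 0.16 (adjusted p = 0.686). The call was also lost without SST replicate 1 (-1.07, adjusted p = 0.0682), 2 (-1.14, 0.0665) or 3 (-1.20, 0.0546). Over 14 settings that gave an adjusted p, the reported one included, Esrra, Esrrg, Ppargc1a and Tfam were called in 14 of 14, Gabpa in 8 and Nrf1 in 7. The groups did not overlap for 5 members, 4 lower and 1 higher, beside 59.3% of all genes tested (28.5% lower and 30.7% higher).

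**Figure D2:**
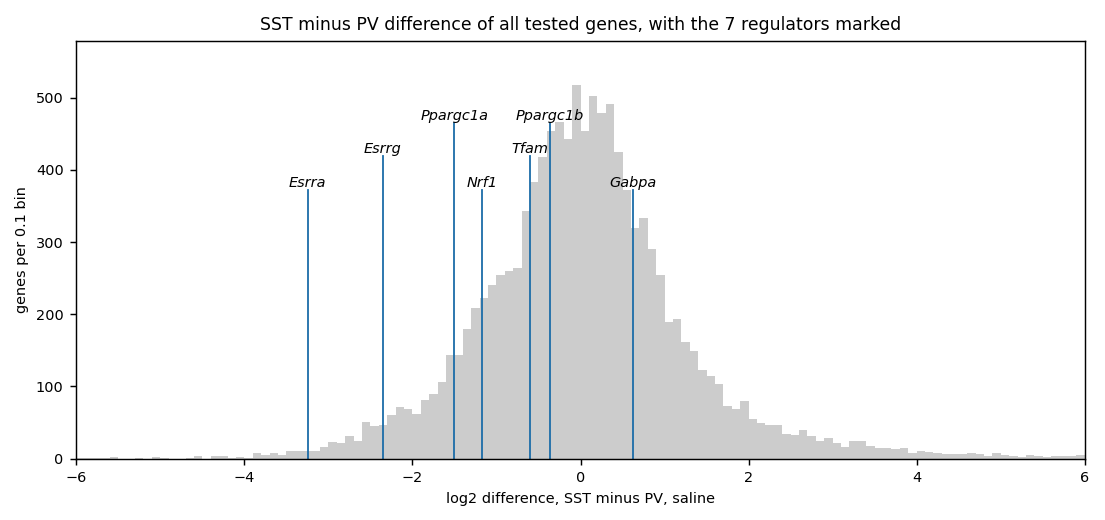
Histogram of the log2 difference (SST minus PV, saline, batch 2) of all 11784 genes tested, in bins of 0.1, with the regulators marked by blue lines of arbitrary height. Esrra and Esrrg lie in the left tail, Ppargc1a and Nrf1 further in, and Gabpa right of the centre at 0.62.

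Base composition moved with this contrast. Genes were split into 10 groups of equal size by the GC content of their transcripts (96.5% of genes had a value), and the median log2 difference was 0.43 in the group with the lowest and -0.43 in the group with the highest GC content. Esrra, with a transcript GC of 61.6%, was in the highest group, and its difference less that group's median was -2.82. The same value was -2.57 for Esrrg, -1.66 for Ppargc1a, -1.05 for Nrf1 and -0.92 for Tfam. Gabpa, at 41.9% GC in the lowest group, was at 0.20, and Ppargc1b at -0.09. Set against genes of like GC content, Ppargc1a, Esrrg and Tfam thus lay further from 0, and Esrra, Nrf1, Gabpa and Ppargc1b nearer to it. Markers of astrocytes summed to 1097 and 1286 CPM in PV and 1101 to 1162 CPM in SST saline libraries, and markers of excitatory neurons to 1569 and 1673 and to 1213 to 1764 CPM. The 7 of 8 microglia markers in this table summed to 34.02 and 31.6 CPM in PV and 40.7 to 48.8 CPM in SST libraries. The 5 of 8 vascular markers in it, of which up to 3 were at 0 in a PV library, summed to 10.74 and 3.21 CPM in PV and 11.2 to 19.75 CPM in SST libraries, so both lists were lower in PV libraries without overlap, and the part of these cells in the differences was not tested.

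The genes that the regulators act on were mostly lower in SST libraries as well. A list of 34 genes, called mitochondrial and energy genes here, held mostly genes of the citric acid cycle, respiratory chain, fat oxidation and antioxidant defence. It also held genes of other roles, among them Hk1, Mfn2, Pdk4, Ucp2 and Vegfa. All 34 were tested, and 23 were called lower and 2 higher, beside 27.1% and 26.0% of all genes tested. Their median log2 difference was -0.75, beside 0.01 over all genes. Cox4i1, a subunit of cytochrome c oxidase, was at 404 ± 160 CPM in PV (SD, n = 2) and 47.2 ± 12.6 CPM in SST saline libraries (SD, n = 4), a log2 difference of -3.10 ± 0.24 (SE; adjusted p = 1.35e-06, edgeR). Ndufv1, which holds the NADH site of complex I, was at 151 and 158 CPM in PV and 36.7 to 43.9 CPM in SST libraries, a log2 difference of -1.95 ± 0.13 (adjusted p = 3.81e-07, edgeR). Atp5a1 of ATP synthase differed by -1.76 ± 0.13 and Uqcrc1 of complex III by -1.45 ± 0.12. The 2 genes called higher, named after their values were seen, were Ucp2 (1.94), an uncoupling protein of the inner membrane, and Atp5b (0.30), a further subunit of ATP synthase. Over 14 settings, 21 to 23 of these 34 genes were called lower.

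Among 14 genes of mitochondrial DNA upkeep and transcription, 13 were tested, and 7 were called lower and 2 higher (median -0.68). Of all genes tested, 27.1% were called lower and 26.0% higher. Lonp1, a matrix protease that degrades Tfam protein, was 40.5 and 62.9 CPM in PV saline libraries and 19.2 to 24.65 CPM in SST saline libraries (log2 difference -1.28 ± 0.19, adjusted p = 0.000185, edgeR). Ssbp1, which coats single-stranded mitochondrial DNA, differed by -1.35 ± 0.27 and Mterf4, which acts in the assembly of mitochondrial ribosomes, by -1.51 ± 0.37. Mterf3, a repressor of mitochondrial transcription, was higher by 1.05 ± 0.27. Without PV replicate 1 these counts were 3 lower and 4 higher.

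Genes that partner with PGC-1 or act upstream of it did not share a direction: of 27 tested among 28, 12 were called higher and 4 lower, with a median of 0.29. Over all genes tested, 53.1% were called in this comparison (26.0% higher and 27.1% lower). Ppard, a nuclear receptor that works with PGC-1alpha in fat oxidation, was 42.5 and 48.75 CPM in PV and 12.6 to 14.6 CPM in SST saline libraries (log2 -1.79 ± 0.17, adjusted p = 5.11e-06, edgeR). The stress kinase gene Mapk14 was lower by -0.88 ± 0.12 (adjusted p = 7.93e-05) along with Esrrb above and Mef2c, a transcription factor (-0.57). Nrip1, a corepressor of nuclear receptors that opposes PGC-1 action, was 46.8 and 81.2 CPM in PV and 215.6 to 242.5 CPM in SST libraries (log2 1.79 ± 0.19, adjusted p = 1.66e-05, edgeR). Sirt1, a deacetylase of PGC-1alpha, was also higher (2.04 ± 0.39, adjusted p = 0.00102, edgeR). The 4 genes of PV cells known to depend on PGC-1alpha were all called lower in SST libraries: Pvalb by -5.26 ± 0.26, Syt2, a fast presynaptic calcium sensor, by -4.36 ± 0.15, Nefh, a neurofilament, by -3.16 ± 0.15, and the complexin Cplx1 by -1.94 ± 0.13. These 4 also mark PV cells, so their direction is no separate evidence about the regulators.

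**Figure D3:**
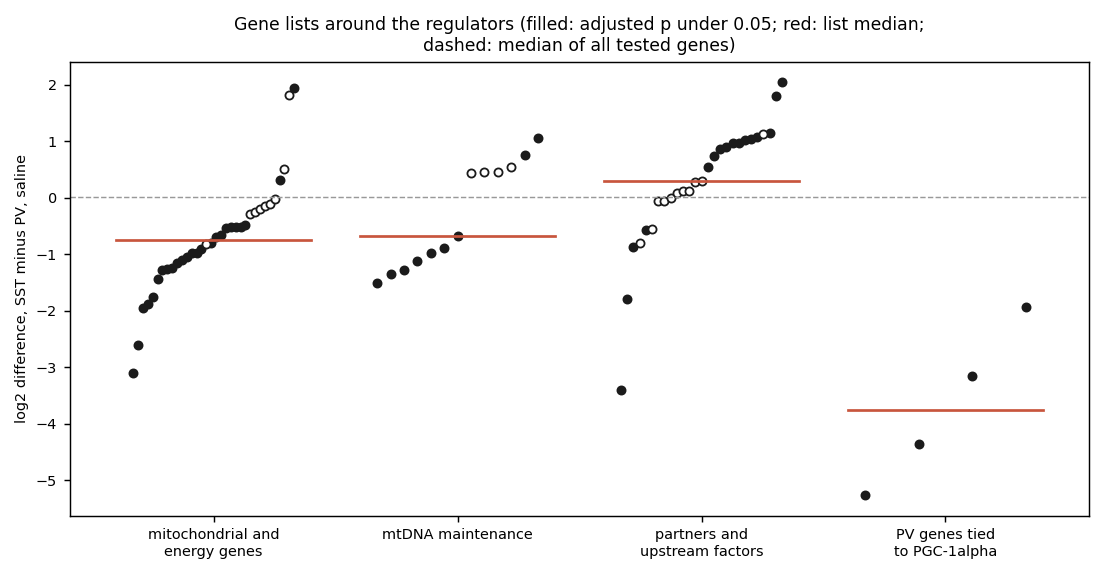
Log2 difference (SST minus PV, saline, batch 2) of each tested gene of 4 lists, sorted within a list, filled where adjusted p was under 0.05, with red bars at list medians and a dashed line at the median of all genes. Mitochondrial and energy genes lie mostly below 0 (23 called lower), partners and upstream factors on both sides, and all 4 PGC-1alpha-linked PV genes below -1.9.

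Per kilobase of exon, which allows genes to be ranked, Ppargc1a stood first in the PV saline libraries of batch 2 at 131 and 270.5 CPM per kb, ahead of Esrrg at 76.7 and 112 CPM per kb. Tfam (7.84 to 8.19 CPM per kb), Esrra (7.72 to 8.19) and Ppargc1b (6.75 to 7.35) followed, of which Tfam and Esrra overlapped. Gabpa (2.69 to 4.55) and Nrf1 (0.779 to 3.16) were last. Their ranges overlapped, but Gabpa stood above Nrf1 within each library. In the SST saline libraries Ppargc1a (63.8 to 86.3 CPM per kb) and Esrrg (16.3 to 21.2) again led, while Ppargc1b, Tfam and Gabpa overlapped between 4.44 and 7.12. Esrra (0.680 to 0.979) was there at the level of Nrf1 (0.676 to 1.05). The order was another one in the home cage PV libraries of batch 3. There the ranges of Ppargc1a (24.4 to 33.5 CPM per kb), Esrra (24.3 to 30.2) and Esrrg (16.9 to 26.5) overlapped. Within each library Esrrg was below both Ppargc1a and Esrra. Gabpa was last at 0.345 to 0.908.

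In the home cage, PV libraries were sequenced in batch 3 and SST libraries in batch 4, so cell type and batch cannot be told apart there and no test was made. Esrra was at 132, 130 and 107 CPM in PV and 50.6, 50.3 and 46.1 CPM in SST home cage libraries. Ppargc1a was at 221, 161 and 168 CPM in PV and 96.2, 124 and 122 CPM in SST libraries. For these 2 genes the values lay higher in PV libraries without overlap. The share of all genes without overlap was not computed for this pair of batches. Between SST and PV saline libraries of batch 2 it was 59.3%, so a lack of overlap may be common here too. Esrrg, at 164, 112.5 and 105 CPM in PV and 126, 56.6 and 36.9 CPM in SST libraries, overlapped. Nrf1 was at 17.4, 8.94 and 15.2 CPM in PV and 31.9, 21.5 and 27.6 CPM in SST home cage libraries, so all SST libraries were higher. In batch 2 the Nrf1 difference had the opposite sign (-1.17), but it was 0.16 without PV saline replicate 2. Tfam, at 52.7, 46.5 and 47.2 CPM in PV and 32.15, 36.9 and 50.1 CPM in SST home cage libraries, overlapped. Ppargc1b (11.1 to 22.1 CPM in PV, 13.4 to 17.6 CPM in SST libraries) and Gabpa (1.962 to 5.16 and 4.88 to 12.65 CPM) overlapped too.

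PTZ changed none of the 7 members beyond the threshold in PV libraries (batch 1). Of 13598 genes tested, 0.0294% were called. Groups overlapped for all 7 members, while 13.8% of all genes tested had no overlap. Most members had lower means after PTZ (5 of 7; median log2 difference -0.19 beside -0.01 over all genes). Tfam had the smallest p: it was at 23.6, 47.3 and 36.9 CPM after saline and at 27.4, 22.1, 22.5 and 23.2 CPM after PTZ. One saline library sat within the PTZ range, and the log2 difference was -0.60 ± 0.24 (95% interval -1.07 to -0.12; unadjusted p = 0.0317, adjusted p = 0.337, edgeR).

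Ppargc1a was at 712, 880 and 902.5 CPM after saline and at 794, 317, 644 and 656 CPM after PTZ in PV libraries. Only PTZ replicate 2 stood far below the rest, and the log2 difference was -0.46 ± 0.29 (adjusted p = 0.461, edgeR). The same library was lowest for Esrra, at 6.72 CPM against 10.05 to 12.74 in the other PTZ libraries and 12.4 to 16.5 after saline (log2 -0.52 ± 0.26, adjusted p = 0.38, edgeR). It was lowest for Esrrg too, at 293 CPM, with 618 to 775 CPM in the other PTZ libraries and 464, 791 and 774 CPM after saline (log2 -0.19 ± 0.33, adjusted p = 0.799, edgeR). In this library the 9 PV markers summed to 908 CPM and the 8 astrocyte markers to 3337 CPM, beside 1451 to 2230 and 2046 to 2374 CPM in the other PTZ libraries. After saline the PV markers summed to 2490 to 3094 CPM, so every PTZ library lay below every saline library. Of these 9 markers, 8 had negative values and 1 a positive value (median log2 difference -0.70), with 0 called. Saline replicate 1, lowest of its group for Ppargc1a, Esrra, Esrrg and Tfam, had astrocyte markers at 4934 CPM beside 995 and 1103 CPM. The part of these cells in the members' values was not tested.

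The remaining members showed less in PV libraries after PTZ. Gabpa was at 46.4, 21.95 and 36.5 CPM after saline and 38.25, 33.8, 42.6 and 39.3 CPM after PTZ, so the saline libraries spread more widely (log2 0.14 ± 0.25). Ppargc1b (30.7 to 36.3 CPM after saline, 23.0 to 41.6 after PTZ) and Nrf1 (8.34 to 11.1 and 8.06 to 11.7) had log2 differences of -0.10 ± 0.23 and 0.01 ± 0.25. None of the 34 mitochondrial and energy genes passed, although 27 of them had negative values (median -0.31). With DESeq2, which called 215 genes in all, 1 of these 34 and 1 of the 4 PGC-1alpha-linked PV genes were called higher. Ucp2 had the smallest p among the 34, at 6.15 ± 4.16 CPM (SD, n = 3) after saline and 27.4 ± 11.6 CPM (n = 4) after PTZ (log2 2.17 ± 0.49, adjusted p = 0.241, edgeR). All 8 microglia, 8 oligodendrocyte and 8 vascular markers had positive values too, with 0 called. Microglia markers summed to 46.2 to 134 CPM after saline and 57.0 to 473 CPM after PTZ. The part of these cells in the Ucp2 value was not tested. Of the 4 PGC-1alpha-linked PV genes, Pvalb had a value of 2.00 ± 0.35 (adjusted p = 0.159) and Syt2 one of -1.25 ± 0.46 (adjusted p = 0.324), opposite in sign. Among 14 genes of mitochondrial DNA upkeep and 28 partners, 0 passed, with the smallest p at Mterf4 (0.73, adjusted p = 0.306) and Crtc2 (0.59, adjusted p = 0.358).

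In SST libraries (batch 2), PTZ also called 0 of the 7 members, with 0.144% of the 11784 genes tested called. Gabpa was at 25.9, 34.6, 34.3 and 30.9 CPM after saline and at 45.35, 43.0 and 42.1 CPM after PTZ. All PTZ libraries were above all saline libraries, with a log2 difference of 0.47 ± 0.17 (95% interval 0.13 to 0.81; unadjusted p = 0.0197, adjusted p = 0.989, edgeR). Esrra was at 4.29, 3.42, 4.00 and 2.98 CPM after saline and at 2.59, 2.83 and 2.69 CPM after PTZ. Here all PTZ libraries were below all saline libraries (log2 -0.44 ± 0.21, adjusted p = 0.989). These were the 2 members without overlap, and 10.4% of all genes tested had none (4.57% higher and 5.84% lower). Gabpa lay in the group of genes with the lowest and Esrra in that with the highest GC content, whose median log2 differences were 0.10 and -0.14 in this comparison.

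Ppargc1a was at 420, 499 and 412 CPM after PTZ in SST libraries, beside 569, 445, 421 and 434 CPM after saline (log2 -0.07 ± 0.20, 95% interval -0.47 to 0.32, adjusted p = 0.99). Esrrg was at 92.9, 123 and 101 CPM after PTZ, within or near its saline range of 101 to 132 (log2 -0.12 ± 0.15). Ppargc1b (0.22 ± 0.18), Nrf1 (0.20 ± 0.36) and Tfam (0.10 ± 0.15) overlapped between groups as well. None of the mitochondrial and energy genes, mitochondrial DNA genes, partners and PGC-1alpha-linked PV genes was called (medians -0.05, -0.05, 0.01 and -0.24), and the smallest p-values belonged to Cox4i1 (-0.53, adjusted p = 0.989), Polrmt (-0.29, 0.989), Prkab1 (-0.59, 0.989) and Pvalb (-0.82, 0.989).

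Whether SST and PV cells answered PTZ differently was tested as a difference of differences over 11743 genes common to both tables. No member passed, and neither did any gene (0.0% called with edgeR; 602 had an unadjusted p under 0.05, and DESeq2 called 1 and limma voom 0). Tfam had the smallest p among the members, with a difference of 0.65 ± 0.28 (unadjusted p = 0.0336, adjusted p = 0.82). For Ppargc1a it was 0.35 ± 0.37 (95% interval -0.37 to 1.07), for Ppargc1b 0.29 ± 0.29, for Gabpa 0.29 ± 0.31 and for Nrf1 0.14 ± 0.48. Esrra (0.05 ± 0.33) and Esrrg (0.03 ± 0.37) had the smallest differences, and both turned negative with library totals as the scale (-0.03 and -0.04).

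**Figure D4:**
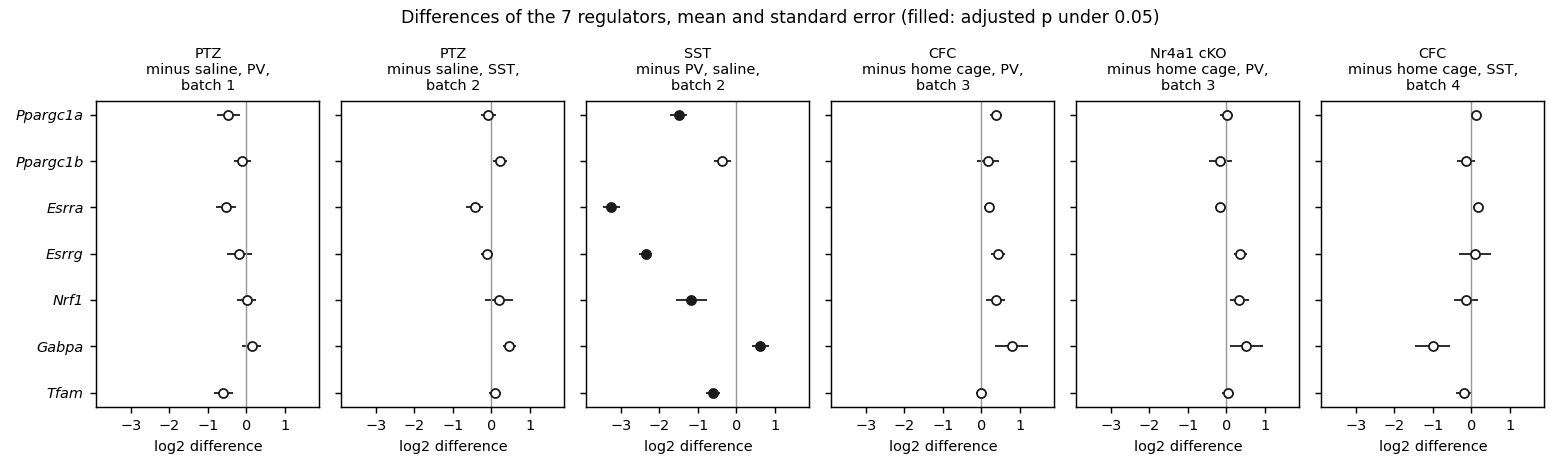
Log2 difference of each regulator in the 6 comparisons, with standard errors, filled where the adjusted p was under 0.05. Filled points appear only in the SST minus PV panel, where Esrra reaches -3.25, and the largest open point is Gabpa after CFC in SST libraries at -1.01.

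After CFC, all 7 members had positive values in PV libraries (batch 3), with a median log2 difference of 0.37 beside 0.02 over all genes, but none passed the test. Tfam was at 0.004 and turned negative with DESeq2 (-0.02), and Ppargc1b turned negative without home cage replicate 2 (-0.088). No gene at all passed there with edgeR (0.0% of 15150), although 2834 had an unadjusted p under 0.05, and DESeq2 called 745 genes and limma voom 1. Esrrg was at 164, 112.5 and 105 CPM in the home cage and at 171, 196 and 150 CPM after CFC. Home cage replicate 1 lay within the CFC range, and the log2 difference was 0.43 ± 0.18 (95% interval 0.08 to 0.79; adjusted p = 0.228, edgeR). Without that library Esrrg was called (0.67, adjusted p = 0.0259), as were 1481 genes in all. The home cage replicates then left, 2 and 3, were the shallowest libraries of the batch, with 15301328 and 10096035 counts. Replicate 1 had 20353741 counts, and the part of depth was not tested.

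Ppargc1a was at 221, 161 and 168 CPM in the home cage and at 213, 274 and 228 CPM after CFC. Again home cage replicate 1 was the one that overlapped (log2 0.38 ± 0.17, 95% interval 0.05 to 0.71, adjusted p = 0.252, edgeR). Esrra was at 132, 130 and 107 CPM in the home cage and at 142.5, 137 and 142 CPM after CFC (log2 0.19 ± 0.13, adjusted p = 0.444, edgeR). It was the 1 member with no overlap, beside 25.0% of all genes tested (13.6% higher). Gabpa, with few reads, was at 5.16, 2.41 and 1.962 CPM and at 6.69, 4.397 and 5.69 CPM after CFC (log2 0.79 ± 0.43, adjusted p = 0.336). Nrf1 (0.37 ± 0.25) and Ppargc1b (0.17 ± 0.29) overlapped, and Tfam was at 52.7, 46.5 and 47.2 CPM before and 50.3, 41.0 and 55.65 CPM after CFC (log2 0.00 ± 0.16, 95% interval -0.30 to 0.31). With DESeq2 its value was -0.02.

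The genes downstream had values on both sides of 0 in PV libraries after CFC. Of the 34 mitochondrial and energy genes 16 had positive and 18 negative values, and of the 14 genes of mitochondrial DNA upkeep 7 and 7 (medians -0.03 and 0.02), with 0 called. Without home cage replicate 1, 4 of the 34 were called higher and 3 lower, and with DESeq2 2 and 2. The smallest p-values of the lists belonged to the hexokinase Hk1 (0.64, adjusted p = 0.186, edgeR) and the mitochondrial fusion gene Mfn2 (0.67, 0.186), the kinases Mapk14 (0.66, 0.186) and Prkaa2 (0.68, 0.195), the mitochondrial polymerase Polg (1.01, 0.186) and Ssbp1 (-0.53, 0.188), and Nefh (0.65, 0.186) and Syt2 (0.25, 0.431). Pvalb was at 155, 190 and 163 CPM in the home cage and 179, 143 and 166 CPM after CFC.

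In SST libraries (batch 4), CFC called 0 of the 7 members, with 0.0411% of the 14614 genes tested called (5 higher and 1 lower; 5 and 0 with library totals as the scale; 37 genes without home cage replicate 1 and 1 without any other single library). Gabpa had the largest value, at 4.88, 8.18 and 12.65 CPM in the home cage and 6.21, 3.37 and 3.22 CPM after CFC. The groups overlapped in 1 home cage library, and the log2 difference was -1.01 ± 0.46 (95% interval -1.92 to -0.10; adjusted p = 0.912, edgeR). Esrra was at 50.6, 50.3 and 46.1 CPM in the home cage and 62.75, 52.05 and 52.1 CPM after CFC. As in PV libraries it had no overlap (10.6% of all genes tested had none, 4.82% higher), with a log2 difference of 0.18 ± 0.13 (adjusted p = 0.997, edgeR).

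Ppargc1a differed little after CFC in SST libraries, at 96.2, 124 and 122 CPM in the home cage and 120.5, 117 and 135 CPM after CFC (log2 0.12 ± 0.12, 95% interval -0.12 to 0.36). Esrrg varied widely within groups, from 36.9 to 126 CPM in the home cage and from 49.9 to 98.5 CPM after CFC (log2 0.09 ± 0.42). In both groups the libraries with more Esrrg also had more Pvalb: 477, 189 and 87.2 CPM of Pvalb stood beside 126, 56.6 and 36.9 CPM of Esrrg in the home cage. After CFC, Pvalb at 220, 422 and 240 CPM stood beside Esrrg at 49.9, 98.5 and 85.4 CPM. The 9 PV markers summed to 1519, 1128 and 960 CPM in these home cage libraries, the same order as Esrrg. After CFC they summed to 1229, 1286 and 1192 CPM, which is not the order of Esrrg. Syt2, at 65.3, 43.8 and 48.1 CPM after CFC, ran in the reverse order. The part of PV cells in these Esrrg values was not tested. Ppargc1b (-0.14 ± 0.24), Nrf1 (-0.13 ± 0.31) and Tfam (-0.19 ± 0.20) overlapped. None of the 4 lists had a called gene, and 27 of 34 mitochondrial and energy genes had small positive values (median 0.06); the smallest p-values were at Acadl (-0.74, adjusted p = 0.791), Nfe2l2 (-2.49, 0.861), Top1mt (-0.37, 0.896) and Cplx1 (0.11, 0.997). Summed vascular markers were 105 to 496 CPM in the home cage and 41.6 to 65.7 CPM after CFC. Microglia markers summed to 64.9 to 97.5 CPM and 50.55 to 59.9 CPM, also without overlap. All 8 astrocyte and 8 oligodendrocyte markers had negative values as well, though their sums overlapped. The part of these cells was not tested.

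The difference between the CFC answers of SST and PV cells was tested over 16081 genes, of which none passed (0.0% called with edgeR; 2452 had an unadjusted p under 0.05, and DESeq2 called 327 and limma voom 0; 881 without PV home cage replicate 1). Gabpa came closest among the members, with -1.74 ± 0.64 (95% interval -3.01 to -0.48; unadjusted p = 0.0155, adjusted p = 0.229). For the other members the values lay between -0.45 (Nrf1) and 0.05 (Esrra), all with adjusted p-values of 0.645 or more. Esrra was at -0.10 with library totals as the scale, which shifted the median of all genes by -0.15.

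For the Nr4a1 cKO comparison in PV libraries, Nr4a1 itself was at 5.07, 7.43 and 11.7 CPM in the home cage and at 6.67, 16.4 and 7.64 CPM in the libraries labelled cKO (log2 0.38 ± 0.35, adjusted p = 0.592, edgeR). The tables count all exons together, so this does not check the deletion. The home cage libraries are the ones also used for CFC, so the 2 comparisons share them. Of the 7 members 0 were called, with 0.139% of the 15150 genes tested called (15 higher and 6 lower; 19 and 4 with library totals as the scale, which shifted the median by 0.11). All 7 overlapped between groups, while 18.4% of genes tested did not.

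Ppargc1a was at 222, 164 and 168 CPM in the PV libraries labelled cKO, close to its 221, 161 and 168 CPM in the home cage (log2 0.01 ± 0.17, 95% interval -0.32 to 0.34). Its sign changed with RLE scaling and with DESeq2 (-0.01 in both). Esrrg was at 185, 149 and 158.5 CPM, above 2 of the 3 home cage libraries (log2 0.37 ± 0.18, 95% interval 0.01 to 0.72, adjusted p = 0.301, edgeR). Without home cage replicate 1 it was called (0.60, adjusted p = 0.0394), as were 1224 genes. That leaves home cage replicates 2 and 3, the shallowest libraries of the batch. Esrra was at 105, 124 and 101 CPM (-0.16 ± 0.13), Tfam at 47.6, 56.2 and 46.2 CPM (0.03 ± 0.15) and Gabpa at 6.11, 4.82 and 2.98 CPM (0.52 ± 0.43), and all overlapped the home cage. Nrf1 (0.34 ± 0.25) and Ppargc1b (-0.15 ± 0.29) did too.

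No gene of the 4 lists was called in the PV cKO comparison. Without home cage replicate 1, 2 of the 34 mitochondrial and energy genes were called higher and 3 lower, and with DESeq2 1 and 1. Pvalb was at 1052, 1345 and 156 CPM in the libraries labelled cKO, so 2 of them lay far above the home cage libraries at 155 to 190 and 1 within their range (log2 2.33 ± 0.61, adjusted p = 0.151, edgeR). Syt2 (0.00 ± 0.17) and Nefh (0.19 ± 0.22) of the same list did not differ beyond their spread, and Cplx1 was at -0.30 ± 0.11 (adjusted p = 0.2). The smallest p-values of the other lists were at Mfn2 (0.76, adjusted p = 0.133), Ssbp1 (-0.62, 0.157), Cox5a (-0.67, 0.165), Yy1 (-0.69, 0.188), Rnaseh1 (-0.48, 0.226) and Mapk14 (0.41, 0.284). Oligodendrocyte markers summed to 423 to 999 CPM in libraries labelled cKO and 222 to 408 CPM in the home cage, and their part was not tested.

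The SST libraries labelled Nr4a1 cKO form batch 5 alone, so genotype and batch cannot be told apart and no test was made. Ppargc1a was at 123, 130.5 and 130.1 CPM there, Esrra at 43.1, 40.4 and 36.7 CPM and Esrrg at 90.45, 67.4 and 51.3 CPM. In the SST home cage libraries of batch 4 they were at 96.2 to 124, 46.1 to 50.6 and 36.9 to 126 CPM. Tfam was at 44.0, 52.1 and 44.2 CPM, Nrf1 at 25.9, 24.4 and 24.9 CPM, Gabpa at 14.8, 8.86 and 11.1 CPM and Ppargc1b at 15.9, 16.0 and 15.3 CPM. Of the 7 members, Esrra alone lay outside the range of the batch 4 home cage libraries in every library. The share of all genes that do so was not computed, so this cannot be called particular to Esrra.

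Across the 34 libraries, with each batch centred on its own mean of log2(CPM + 1), Ppargc1a and Esrra had a Pearson r of 0.831, Esrra and Esrrg 0.839 and Ppargc1a and Esrrg 0.794. Batch 2 holds both cell types, and without it (25 libraries) these were 0.756, 0.461 and 0.492. These are descriptions, since libraries of a group, depth and tissue makeup are shared by all genes. Among 10149 genes of at least 5 CPM on average, the most alike to Ppargc1a were Fam210b (r = 0.922, and 0.862 without batch 2), Mapre3 (0.909, 0.819), Clip4 (0.906, 0.789), Map4 (0.903, 0.842) and Map7d2 (0.903, 0.758). To Esrra they were Ckb, the brain creatine kinase (0.974, 0.736), Pagr1a (0.967, 0.725), Fez2 (0.967, 0.852), Ldhb, a lactate dehydrogenase subunit (0.965, 0.806), and Adssl1 (0.964, 0.822). To Esrrg they were Fam163a (0.918, 0.789), Kcng4, a potassium channel subunit (0.917, 0.824), Tmem108 (0.912, 0.780), Gfra1, a GDNF receptor (0.908, 0.766), and Rassf4 (0.907, 0.853). With Ppargc1a, r was 0.532 for Tfam, 0.465 for Nrf1, 0.356 for Ppargc1b and -0.166 for Gabpa, and without batch 2 it was 0.432, 0.0785, 0.49 and 0.164. With Esrra, r was 0.545 for Tfam, 0.360 for Nrf1, 0.271 for Ppargc1b and -0.397 for Gabpa, and without batch 2 it was 0.506, -0.0977, 0.318 and 0.0134.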

How the data were processed

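Ribosome-bound mRNA of 34 libraries was analysed from 5 gene tables, 1 per batch. Batches 2 to 5 hold read counts per gene as deposited. Batch 1 holds estimated counts as deposited by the authors, of which 11.3% were not whole, and these were rounded. The submitters' processing notes name cutadapt 1.18, STAR 2.5.2a, HTSeq 0.11.0, DESeq2, mm10 and GRCm39, without saying which table used which. Groups came from the labels, and the 7 genes and the gene lists were chosen with earlier results of these data known.

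Each batch was fitted with 1 mean per group in edgeR 4.0.16 (R 4.3.3; TMM scaling, filterByExpr, robust quasi-likelihood F test, Benjamini-Hochberg threshold 0.05), so that all its libraries share 1 estimate of spread. The 2 tests of a difference between responses used the genes common to both tables. Standard errors were derived from the F statistic, and 95% intervals are approximate. Alternatives were RLE scaling, library totals only, no filter, DESeq2 1.42.0, limma voom (limma 3.58.1), a replicate block, the compared groups alone and leaving out each library. A GC content comparison was added after seeing the data. The fit was tested on simulated counts. Levels per kilobase used GENCODE M21 exon lengths. From each list, up to 4 called genes with the smallest p are named, or up to 2 where none was called, besides genes said to be chosen after their values were seen. Sirt1 and Mef2c were also chosen after their values were seen. Tables were scaled separately, so levels are compared only within a table unless stated. Esrra, Gabpa and Nrf1 rested on the fewest reads, down to 46, 18 and 53 in a library.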

Additional observations from a re-analysis of the deposited data

Results flagged for a closer look

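Of 14 sets of 4 libraries examined (7 members in each of 2 groups of 4), 1 had a library far from the others, where chance picks out about 1 set in 20. Ppargc1a was at 568.7 CPM in replicate 1 of the SST saline libraries, against 421 to 445 CPM in the other SST saline libraries. Without that library Ppargc1a differed by 0.03 on the log2 scale between PTZ and saline in SST libraries, beside -0.07 with it, and by -1.61 between SST and PV saline libraries, beside -1.50.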

How the results depend on the processing

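Over 854 values of the members under alternatives, 783 kept their direction and their side of the threshold, 12 lost and 2 gained a call with the same sign, 52 changed sign (1 of them, Nrf1 without PV saline replicate 2, also lost its call) and 5 moved beyond the spread. Esrra, Esrrg, Ppargc1a and Tfam kept their calls between SST and PV cells in 14 of 14 settings. The Nrf1 call was lost with limma voom (-0.75, adjusted p = 0.147), the replicate block (-1.23, 0.084) and the compared groups alone (-1.17, 0.063), and the Gabpa call with the block (0.63, 0.0663) and the groups alone (0.63, 0.0788). The cause was not tested.

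Same-numbered libraries correlated between -0.232 and 0.352 in their deviations. These few correlations cannot decide whether such libraries share more than a number. With the replicate block, edgeR called 2 genes for PTZ in PV, 8 for PTZ in SST, 4947 between SST and PV, 2 for CFC in PV, 27 for cKO, 2 for CFC in SST, and 1 and 0 for the differences in PTZ and CFC response. It turned the sign of Esrrg (0.071) and Nrf1 (-0.039) for PTZ in PV and of Esrra (-0.19) and Esrrg (-0.25) in the PTZ response difference.

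DESeq2 called 215 genes for PTZ in PV, 38 for PTZ in SST, 745 for CFC in PV, 669 for cKO, 102 for CFC in SST, 1 for the PTZ and 327 for the CFC response difference. Limma voom called 27 for PTZ in SST and 1 for CFC in PV. Without the filter 1032 genes were called for CFC in PV, 1072 for cKO, 11 for CFC in SST and 708 for the CFC response difference. The groups alone gave 38 for PTZ in SST, 2 for CFC in PV and 10 for cKO, and library totals gave 1 for CFC in PV. Tfam for CFC in PV was at -0.0208 with RLE scaling, -0.0212 with DESeq2 and -0.0143 with voom, Nrf1 for PTZ in PV at -0.00702 with voom, and Ppargc1a for cKO at -0.00662 with RLE and -0.00668 with DESeq2. With library totals, Esrra (-0.0287) and Esrrg (-0.0439) turned in the PTZ and Esrra (-0.10) in the CFC response difference.

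Leaving out 1 library gave 0 to 14 called genes for PTZ in PV, 13 to 17 for PTZ in SST, 5476 to 6982 between SST and PV (4 to 5 members), 0 to 1481 for CFC in PV (0 to 1 members), 7 to 1224 for cKO (0 to 1 members), 1 to 37 for CFC in SST, 0 to 1 for the PTZ and 0 to 881 for the CFC response difference. The counts 1481, 1224 and 881 came without PV home cage replicate 1, and 37 without SST home cage replicate 1. Sign changes then gave ranges of -0.24 to 0.0205 (Ppargc1b), -0.40 to 0.0422 (Esrrg), -0.0923 to 0.15 (Nrf1) and -0.11 to 0.39 (Gabpa) for PTZ in PV, -0.17 to 0.0344 (Ppargc1a) for PTZ in SST, -1.88 to 0.16 (Nrf1) between SST and PV, -0.0882 to 0.33 (Ppargc1b) and -0.0941 to 0.12 (Tfam) for CFC in PV. For cKO they were -0.14 to 0.17 (Ppargc1a), -0.42 to 0.0166 (Ppargc1b) and -0.0558 to 0.0994 (Tfam), for CFC in SST -0.23 to 0.74 (Esrrg), -0.51 to 0.14 (Nrf1) and -0.32 to 0.0162 (Tfam). They were -0.0978 to 0.17 (Esrra) and -0.19 to 0.24 (Esrrg) for the PTZ, and -0.0490 to 0.15 (Esrra), -0.63 to 0.38 (Esrrg) and -0.25 to 0.0713 (Tfam) for the CFC response difference.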

Other observations

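Levels of the members differed widely between tables that were scaled separately. From PV saline libraries of batch 1 to PV home cage libraries of batch 3, log2(mean CPM + 1) differed by 2.97 for Esrra, -2.18 for Ppargc1a, -2.40 for Esrrg and -3.11 for Gabpa, beside a median of -0.11 over the genes compared. That median was -1.09 in the group of genes with the lowest and 0.91 in the group with the highest GC content. From SST saline libraries of batch 2 to SST home cage libraries of batch 4, the values were 3.42 for Esrra, -2.02 for Ppargc1a, -0.64 for Esrrg and -1.76 for Gabpa, beside 0.39 over these genes and -0.73 and 1.62 in the groups of lowest and highest GC content. Treatment, batch and table differ together here, so their parts cannot be told apart. Over all libraries the highest level was 54.9 times the lowest for Esrra, 23.6 times for Gabpa and 21.4 times for Esrrg, but 2.75 times for Tfam.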
